A study of Mus musculus with 29 samples.

Results

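Oligodendrocyte precursor cells (OPCs) are the dividing cells of the central nervous system that give rise to myelinating oligodendrocytes. The genes described here are 7 markers of this lineage, Olig1, Olig2, Sox10, Nkx2-2, Gpr17, Pdgfra and Cspg4, chosen by name and followed through neural differentiation of mouse embryonic stem cells. A gene was read from the array row, called a transcript cluster, that is annotated with its symbol alone. There were 6 such genes among the 7, out of 30142 genes with a cluster of this kind. The only cluster that lists Pdgfra, the receptor for PDGF-A, lists a microRNA gene as well, so Pdgfra is named here without a value. All 6 genes with a cluster passed the filter on low values, which asked for a level above the array's median in at least 2 arrays and left 22063 genes.

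The lineage is set up by transcription factors. Sonic hedgehog (Shh) induces Olig2 and Nkx2-2 in the ventral neural tube, Olig2 is needed to form OPCs there, and Sox10 is needed later for the myelin programme. On the cell surface OPCs carry Pdgfra and the proteoglycan NG2, encoded by Cspg4. Gpr17 marks precursors that have begun to differentiate and is switched off before myelination.

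The study measured RNA with 1 Clariom D (MTA 1.0) array per sample, in 29 arrays that form 14 groups. Cells labelled BERKO, named for a knockout of estrogen receptor beta (gene Esr2), were set beside wild-type (WT) cells at 4 stages, all without feeder cells. The stages were mESC, stem cells kept with LIF, NPC, neural precursors grown with FGFb and laminin, mDPC, midbrain precursors given FGFb, FGF8b, Shh and ascorbic acid, and MN, cells in N2 medium with ascorbic acid that the design names mature midbrain neurons. LY3201, an agonist selective for estrogen receptor beta, was given at 0.5 nM. The mESC stage had 2 BERKO and 2 WT arrays with no treatment. NPC and mDPC each had 2 arrays of BERKO with LY3201, BERKO with vehicle (DMSO), WT with LY3201 and WT with vehicle, after 4 days. MN had 2 arrays of BERKO with LY3201, 3 of untreated BERKO, 2 of WT with LY3201 and 2 of untreated WT, and the length of treatment there was not given. Vehicle and no treatment are both called untreated below. The labels name no clone or passage. Titles share a number within the mESC BERKO pair and within the NPC pair of WT with LY3201, so either pair may be 1 culture.

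Levels are the deposited log2 values, and changes are differences of group means ± SE on that scale, with n = 2 arrays in each group and n = 3 in untreated BERKO MN. The arrays' medians of all clusters were 3.519 to 3.736, and replicate arrays correlated at 0.9944 to 0.9985 across genes, which are not independent replicates. The 95th percentile of the negative controls, 6.632 to 7.661 by array, served as a line for background. Esr2 went against its label, with 3.80 to 4.46 in the 15 BERKO arrays and 3.21 to 3.47 in the 14 WT arrays, all near the controls' medians, and the deleted part of the gene is not in the labels. BERKO and WT therefore name the labels. All 3 pluripotency markers exceeded the background line in the mESC arrays and 0 did in every array of a later group. Of 6 neuronal markers, 4 exceeded the background line in all MN arrays of both genotypes without treatment, and Rbfox3, of mature neurons, did so in 0 arrays. In cultures of mixed cells, a lower level from fewer cells of a type and one from less RNA per cell cannot be told apart.

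The promoter stretches of 3 of the members that differed between the genotypes at NPC and mDPC are shown because the receptor named by the BERKO label acts by binding DNA. Each is the 250 bases before the RefSeq start in the build GRCm38.p6, written 5′ to 3′ on the gene's strand, with E-boxes (CANNTG, the kind of site bound by Olig1, Olig2 and other bHLH factors) in capitals. They lie at chr16:91225300-91225549 (plus strand) for Olig2, chr2:147186403-147186652 (minus strand) for Nkx2-2 and chr9:56864854-56865103 (plus strand) for Cspg4. Olig1, Sox10 and Gpr17 are named only.
Olig2: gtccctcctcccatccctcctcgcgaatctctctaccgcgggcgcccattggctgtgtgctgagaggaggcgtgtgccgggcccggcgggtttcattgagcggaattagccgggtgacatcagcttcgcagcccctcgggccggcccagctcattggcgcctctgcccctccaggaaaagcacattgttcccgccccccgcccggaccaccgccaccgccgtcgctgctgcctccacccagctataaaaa
Nkx2-2: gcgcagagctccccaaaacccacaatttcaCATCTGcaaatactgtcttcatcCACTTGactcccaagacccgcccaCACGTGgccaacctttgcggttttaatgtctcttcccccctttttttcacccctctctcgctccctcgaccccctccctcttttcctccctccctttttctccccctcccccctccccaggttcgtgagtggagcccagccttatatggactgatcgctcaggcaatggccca
Cspg4: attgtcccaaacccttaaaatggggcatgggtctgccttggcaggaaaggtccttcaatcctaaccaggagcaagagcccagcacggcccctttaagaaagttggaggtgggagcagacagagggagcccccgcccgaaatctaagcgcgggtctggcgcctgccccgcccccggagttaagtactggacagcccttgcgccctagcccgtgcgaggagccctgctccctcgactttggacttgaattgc
The Nkx2-2 window held 3 E-boxes, with CATCTG beginning 220 bases before the start, then CACTTG at 197 bases and CACGTG at 173 bases. The windows of Olig2 and Cspg4 held 0, while 66.2% of 32851 promoter windows of this length held at least 1. Both strands were searched for each motif, and motifs could overlap. The estrogen response element GGTCANNNTGACC occurred in 0.0639% of the windows and its arm GGTCA in 35.2%, and neither was found in these 3. Each of the 3 held 1 SOX core ACAAT, on either strand, and 27.7% of windows held at least 1. These matches are descriptions of the letters and not of binding.

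**Figure D1:**
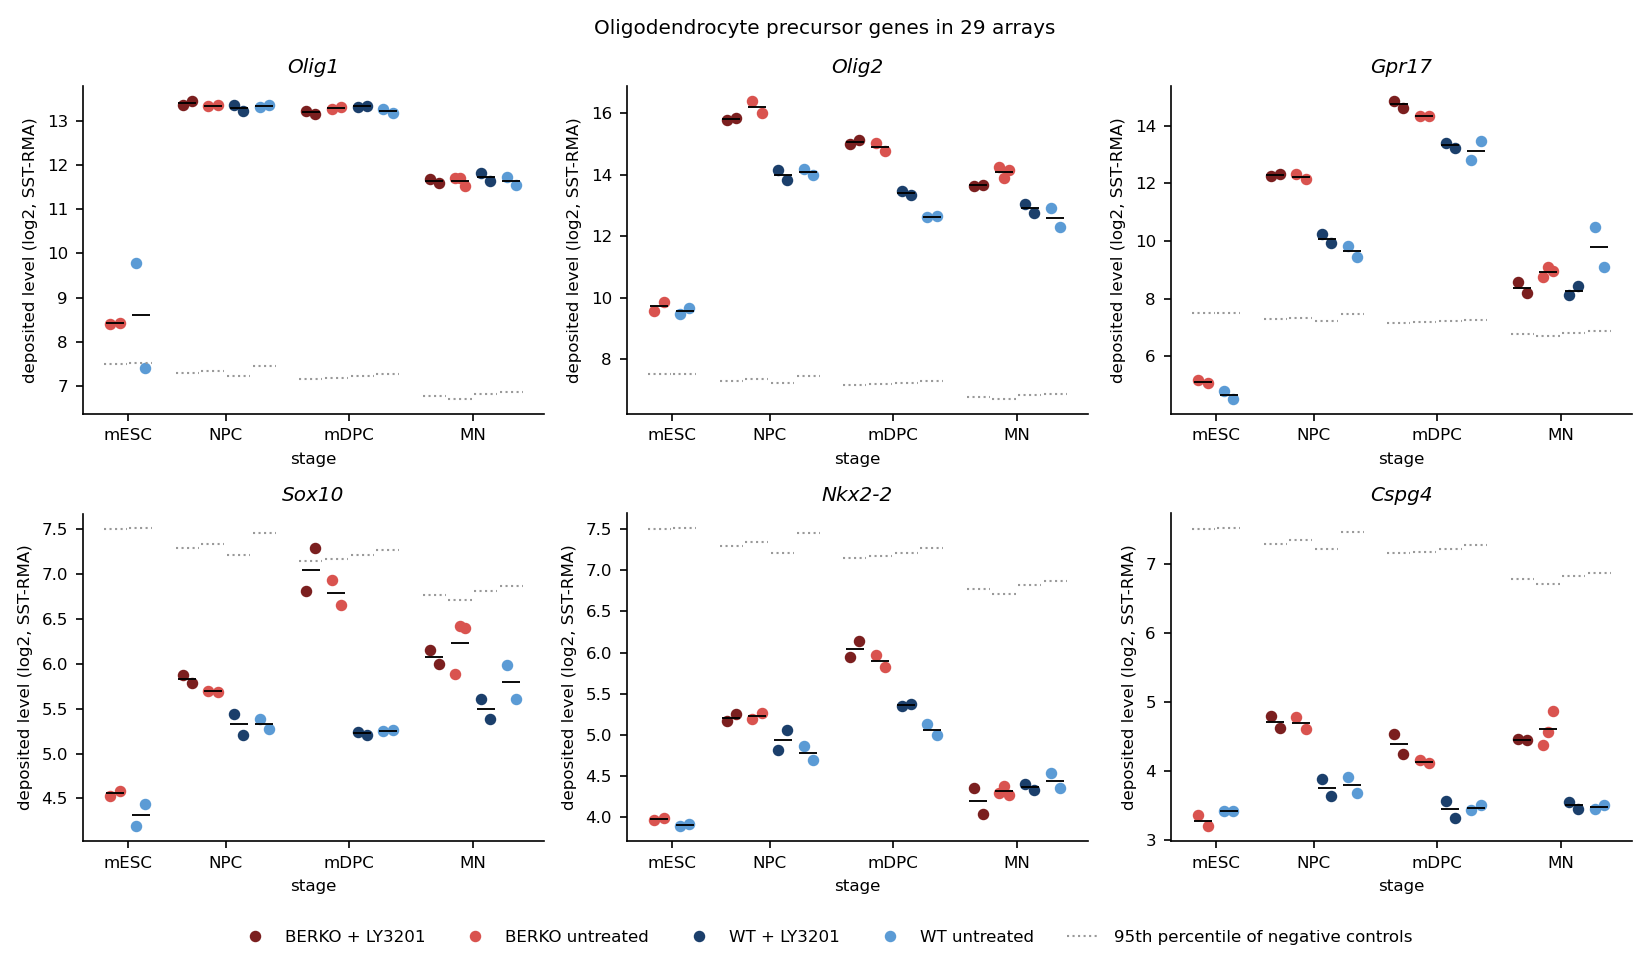
Deposited log2 level of the 6 genes in each of 29 arrays, by stage, with group means as black bars and the mean 95th percentile of the negative controls per group as dotted lines. Olig1 lies between 13.17 and 13.46 in all NPC and mDPC arrays, Olig2 and Cspg4 are higher in BERKO than in WT arrays of the same stage and treatment from NPC on, and Sox10, Nkx2-2 and Cspg4 lie below the dotted lines but for 1 Sox10 array.

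Olig2 was higher in BERKO than in WT cells at every stage after mESC, with and without LY3201. In mESC it read 9.58 and 9.86 in the BERKO arrays and 9.46 and 9.65 in the WT arrays. These overlapped, and the difference of 0.17 ± 0.18 did not pass (limma, adjusted p = 0.709). In NPC the untreated BERKO arrays read 16.41 and 16.03, against 14.19 and 13.99 in untreated WT. In mDPC the values were 15.03 and 14.79 in BERKO and 12.63 and 12.65 in WT. No BERKO array came near the WT arrays at these stages. The MN arrays read 14.25, 13.90 and 14.16 in BERKO and 12.91 and 12.30 in WT, again without overlap. The difference was 2.13 ± 0.18 in NPC, or 4.38-fold (limma, adjusted p = 1.05e-07), and 2.27 ± 0.18 in mDPC, or 4.81-fold (limma, adjusted p = 2.97e-08). It was 1.5 ± 0.16 in MN, or 2.82-fold (limma, adjusted p = 1.37e-06). Among the cells given LY3201 the groups did not overlap either. There the levels were 15.80 and 15.84 in BERKO and 14.17 and 13.83 in WT at NPC, and 14.99 and 15.12 in BERKO against 13.48 and 13.34 in WT at mDPC. At MN they were 13.64 and 13.68 in BERKO and 13.06 and 12.76 in WT. These differences were 1.82 ± 0.18, 1.64 ± 0.18 and 0.75 ± 0.18 by stage (limma, adjusted p = 8.05e-07, 1.75e-06 and 0.00595). The last was 0.61 with adjusted p = 0.0876 without the WT array 2 of MN with LY3201.

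Both genotypes gained Olig2 on the way to NPC. The rise over mESC was 6.50 ± 0.18 in BERKO and 4.54 ± 0.18 in WT, 90.5-fold and 23.2-fold. The step differed between genotypes by 1.96 ± 0.26 (limma, adjusted p = 4.77e-05). Between NPC and mDPC the gene fell by 1.31 in BERKO and by 1.45 in WT, and these steps differed by 0.13 ± 0.26 (95% interval -0.40 to 0.67, adjusted p = 0.858). The step to MN was -0.80 ± 0.16 in BERKO and -0.04 ± 0.18 in WT. Their difference of -0.77 ± 0.24 had adjusted p = 0.0455 in limma, and the call was lost under 22 of 36 alternatives. Without the untreated WT array 1 of MN it was -0.47 with adjusted p = 0.267.

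Olig1, the bHLH gene next to Olig2 with 1 annotated gene between them and no protein-coding gene, had no called difference between genotypes. In NPC it read 13.34 and 13.37 in untreated BERKO, against 13.32 and 13.36 in untreated WT. In mDPC it read 13.27 and 13.33 in BERKO and 13.28 and 13.18 in WT. The MN arrays read 11.72, 11.72 and 11.52 in BERKO and 11.74 and 11.56 in WT. The genotypes overlapped at all 3 stages. The differences were 0.02, 0.07 and 0.00, and the 95% intervals of the model, -0.83 to 0.87 in NPC, -0.78 to 0.92 in mDPC and -0.77 to 0.78 in MN, were wide (limma, adjusted p = 0.984, 0.948 and 0.999). Their width came with the stem cell stage. In mESC the BERKO arrays read 8.41 and 8.43, while the WT arrays stood far apart at 9.79 and 7.40, the lower just under the background line. The SD within groups was 0.44 over all groups and 0.08 over the NPC, mDPC and MN groups. In mESC the genotype difference was -0.17 ± 0.40 with both WT arrays, 1.03 without WT array 1 and -1.37 without WT array 2, so 1 array set its direction. With LY3201 Olig1 read 13.36 and 13.46 in BERKO and 13.37 and 13.24 in WT at NPC, and 13.23 and 13.17 in BERKO against 13.33 and 13.35 in WT at mDPC. At MN these were 11.68 and 11.60 in BERKO and 11.83 and 11.65 in WT. The lower BERKO mDPC values did not overlap the WT ones, but the difference of -0.14 ± 0.40 did not pass (limma, adjusted p = 0.884).

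Olig1 was higher in NPC and fell to MN in both genotypes. It was higher in NPC than in mESC by 4.94 ± 0.40 in BERKO and 4.74 ± 0.40 in WT (limma, adjusted p = 1.55e-09 and 2.77e-09). From mDPC to MN it fell by 1.65 in BERKO and by 1.58 in WT (limma, adjusted p = 0.000989 and 0.00359). Testing BERKO steps against WT steps gave 0.19 ± 0.57, 0.05 ± 0.57 and -0.07 ± 0.55, none past the threshold, with wide 95% intervals of -1.01 to 1.39, -1.15 to 1.25 and -1.22 to 1.08. The first was -1.0 without WT array 1 of mESC and 1.39 without WT array 2, past the threshold both times (limma, adjusted p = 0.000182 and 5.43e-06).

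Nkx2-2, a homeodomain factor induced by Shh, stayed below the background line in all arrays, so its differences are given without folds. In mESC it read 3.97 and 3.99 in BERKO and 3.89 and 3.92 in WT, and the difference did not pass (0.08 ± 0.11, limma, adjusted p = 0.791). In NPC the untreated arrays read 5.19 and 5.26 in BERKO and 4.87 and 4.70 in WT. In mDPC they read 5.97 and 5.82 in BERKO and 5.13 and 5.0 in WT. BERKO lay above WT without overlap at both stages. The differences were 0.44 ± 0.11 in NPC (limma, adjusted p = 0.00778) and 0.83 ± 0.11 in mDPC (limma, adjusted p = 1.52e-05). The NPC call was lost without BERKO array 2 (adjusted p = 0.0733) and without WT array 2 (adjusted p = 0.102). In MN no difference was called, with 4.29, 4.38 and 4.27 in BERKO and 4.54 and 4.35 in WT, which overlapped (-0.13 ± 0.10, limma, adjusted p = 0.394). The step from mDPC to MN was -1.58 ± 0.10 in BERKO and -0.62 ± 0.11 in WT, a difference of -0.97 ± 0.15 (limma, adjusted p = 0.000134). With LY3201 the NPC arrays read 5.17 and 5.25 in BERKO and 4.81 and 5.06 in WT, and the mDPC arrays 5.95 and 6.14 in BERKO and 5.35 and 5.38 in WT. The MN arrays read 4.36 and 4.04 in BERKO and 4.40 and 4.33 in WT. Of these only the mDPC difference passed, at 0.68 ± 0.11 (limma, adjusted p = 0.00014).

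Sox10, an HMG-box factor that activates myelin genes and also marks the neural crest, was highest in BERKO mDPC, and there it reached the background line. The untreated mDPC arrays read 6.93 and 6.65 in BERKO, against 5.25 and 5.26 in WT. With LY3201 they read 6.81 and 7.29 in BERKO, against 5.24 and 5.21 in WT. The 7.29 was the only Sox10 value above its array's line, which lay at 7.145. No BERKO array overlapped WT, and the differences were 1.53 ± 0.18 untreated and 1.83 ± 0.18 with LY3201 (limma, adjusted p = 3.29e-06 and 3.03e-07). In mESC the gene read 4.53 and 4.58 in BERKO and 4.19 and 4.44 in WT. In NPC it read 5.70 and 5.69 in untreated BERKO and 5.38 and 5.27 in untreated WT, and 5.87 and 5.79 in BERKO and 5.44 and 5.21 in WT with LY3201. Neither stage passed, with differences of 0.23 ± 0.18 in mESC, 0.37 ± 0.18 in untreated NPC and 0.51 ± 0.18 in NPC with LY3201 (limma, adjusted p = 0.544, 0.184 and 0.08). In MN it read 5.89, 6.42 and 6.4 in untreated BERKO and 5.99 and 5.61 in untreated WT, which overlapped, and 6.15 and 6.0 in BERKO and 5.61 and 5.38 in WT with LY3201, which did not. The MN difference was 0.44 ± 0.16 untreated (limma, adjusted p = 0.061) and 0.58 ± 0.18 with LY3201 (limma, adjusted p = 0.0251). Without BERKO array 1 the untreated MN difference passed (0.61, adjusted p = 0.00651), and it also passed without WT array 1 (0.63, adjusted p = 0.0312). Without the WT array 2 of MN with LY3201 the treated one did not pass (0.47, adjusted p = 0.197).

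The course of Sox10 differed between genotypes at the later 2 steps. From NPC to mDPC it changed by 1.09 ± 0.18 in BERKO and by -0.07 ± 0.18 in WT, a difference of 1.16 ± 0.25 (limma, adjusted p = 0.00486). From mDPC to MN it changed by -0.55 ± 0.16 in BERKO and by 0.54 ± 0.18 in WT, a difference of -1.10 ± 0.24 (limma, adjusted p = 0.00372). The WT step alone did not pass without the untreated WT array 1 of MN (0.35, adjusted p = 0.202), nor the BERKO step without BERKO array 1 of mDPC (-0.42, adjusted p = 0.112).

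Gpr17, a G protein-coupled receptor of early differentiating oligodendrocytes, rose through mDPC and fell again in MN. In mESC it lay under the background line, at 5.16 and 5.07 in BERKO and 4.79 and 4.52 in WT, and did not pass (0.46 ± 0.30, limma, adjusted p = 0.467). In NPC the untreated arrays read 12.32 and 12.15 in BERKO and 9.84 and 9.45 in WT. NPC stood at least 26.6-fold above the mESC background line in BERKO and at least 4.39-fold above it in WT. In mDPC they read 14.36 and 14.36 in BERKO and 12.81 and 13.46 in WT. The BERKO arrays lay above WT without overlap at both stages, by 2.59 ± 0.30 or 6.03-fold in NPC and by 1.23 ± 0.30 or 2.34-fold in mDPC (limma, adjusted p = 4.73e-06 and 0.00766). The mDPC call was lost without WT array 1 (0.90, adjusted p = 0.127) and without BERKO array 1 (1.23, adjusted p = 0.0518). With LY3201 the levels were 12.27 and 12.34 in BERKO and 10.23 and 9.92 in WT at NPC, and 14.87 and 14.64 in BERKO and 13.41 and 13.23 in WT at mDPC. These differences were 2.23 ± 0.30 and 1.44 ± 0.30 (limma, adjusted p = 3.1e-05 and 0.00196).

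In MN Gpr17 was no longer higher in BERKO. The untreated arrays read 8.75, 9.08 and 8.97 in BERKO and 10.49 and 9.08 in WT. The highest BERKO array and the lower WT array were equal at this rounding, and WT array 1 stood apart. The difference of -0.85 ± 0.27 passed (limma, adjusted p = 0.031), but not without WT array 1 (-0.15, adjusted p = 0.748), without BERKO array 1 (-0.76, adjusted p = 0.0876) or without BERKO array 3 (-0.87, adjusted p = 0.0596). Fitting only the compared arrays gave adjusted p = 0.231. With LY3201 the arrays read 8.56 and 8.20 in BERKO and 8.13 and 8.42 in WT and overlapped (0.11 ± 0.30, limma, adjusted p = 0.851). The fall from mDPC to MN was -5.43 ± 0.27 in BERKO and -3.34 ± 0.30 in WT. These differed by -2.08 ± 0.40 (limma, adjusted p = 0.0014), and by -1.38 without WT array 1 of MN. At the earlier steps the fitted rise of Gpr17 was 7.12 ± 0.30 in BERKO and 4.99 ± 0.30 in WT at NPC, a difference of 2.13 ± 0.42 (limma, adjusted p = 0.00243). To mDPC it rose by 2.12 ± 0.30 in BERKO and 3.49 ± 0.30 in WT, a difference of -1.36 ± 0.42 that did not pass (limma, adjusted p = 0.0515). That difference passed without either untreated WT array of MN, but those arrays are not part of this step. It stayed at -1.36 in both fits, and only the spread that all groups share changed. Without WT array 1 of mDPC it was -1.69 and passed.

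Cspg4, whose NG2 proteoglycan is carried by OPCs and also by pericytes, lay below the background line in every array. In untreated NPC it read 4.78 and 4.60 in BERKO and 3.91 and 3.68 in WT, and in mDPC 4.16 and 4.11 in BERKO and 3.44 and 3.5 in WT. In MN it read 4.38, 4.57 and 4.86 in BERKO and 3.45 and 3.51 in WT. BERKO lay above WT at all 3 stages without overlap, by 0.90 ± 0.14, 0.66 ± 0.14 and 1.12 ± 0.13 (limma, adjusted p = 0.000136, 0.00237 and 1.89e-06). With LY3201 the arrays read 4.79 and 4.62 in BERKO and 3.88 and 3.63 in WT at NPC, and 4.54 and 4.24 in BERKO and 3.57 and 3.32 in WT at mDPC. At MN they read 4.46 and 4.44 in BERKO and 3.55 and 3.45 in WT. The differences were 0.95, 0.95 and 0.96, each ± 0.14 (limma, adjusted p = 8.98e-05, 5.97e-05 and 5.62e-05). In mESC BERKO had 3.36 and 3.20 and WT 3.42 and 3.42, with no call (-0.14 ± 0.14, limma, adjusted p = 0.674). The step from mESC to NPC was 1.42 ± 0.14 in BERKO and 0.38 ± 0.14 in WT, and differed by 1.04 ± 0.20 (limma, adjusted p = 0.0017). The WT step alone lost its call without WT array 1 of NPC (0.26, adjusted p = 0.206) and without either WT array of mESC (adjusted p = 0.0749 and 0.0789). Of 5 pericyte markers tested, 3 were lower in BERKO and 0 higher in untreated NPC, and 1 was lower in mDPC. In MN 3 were lower and Anpep was higher (0.75 ± 0.08, limma, adjusted p = 8.04e-07). Of all genes, 5.08% were lower and 10.6% higher in untreated NPC. These shares were 5.32% and 8.51% in mDPC, and 7.31% and 13.5% in MN. The mean level of the 6 markers was 4.36 to 4.38 in BERKO and 5.10 to 5.12 in WT NPC, and 5.02 to 5.2 in BERKO and 5.61 to 5.91 in WT MN. In mDPC it was 4.1 to 4.18 in BERKO and 4.33 to 4.37 in WT, and at most 1 of the 6 exceeded the background line in all arrays of an untreated group at these stages.

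**Figure D2:**
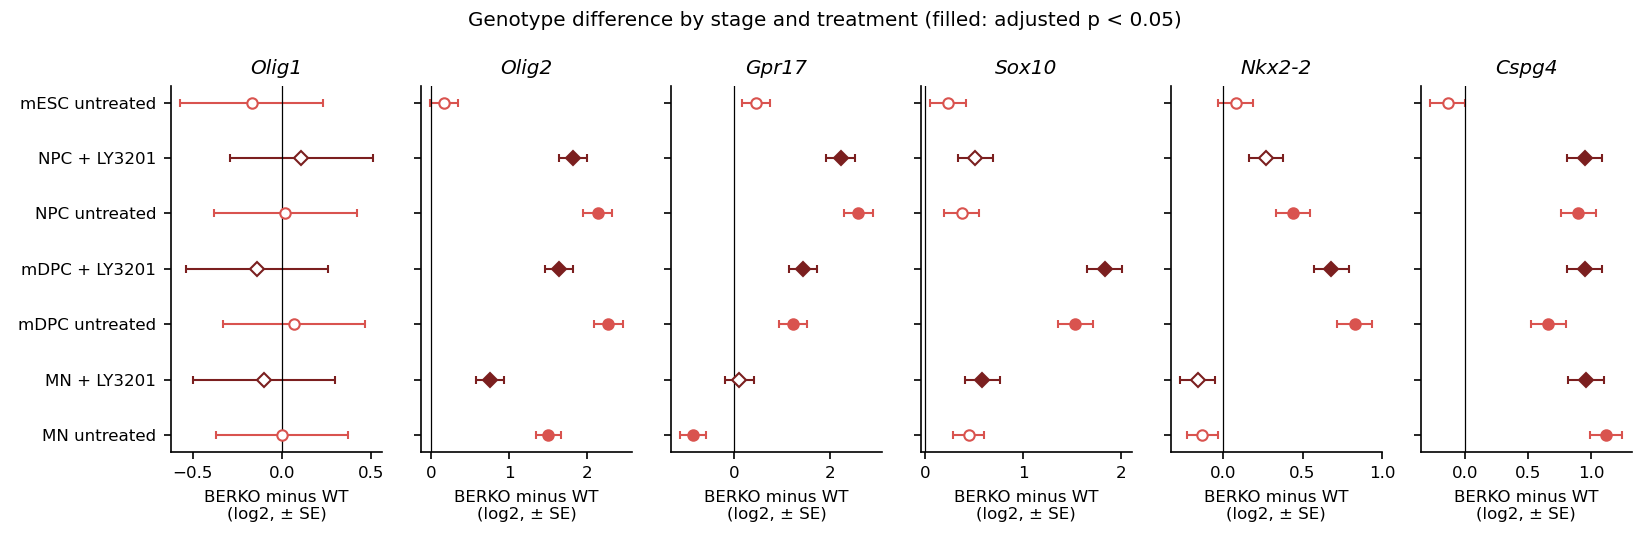
BERKO minus WT difference of each gene on the log2 scale ± SE, by stage and treatment, with circles for untreated cells, diamonds for cells given LY3201 and filled symbols for an adjusted p under 0.05. Olig2 and Cspg4 are higher in BERKO in all 6 comparisons after mESC, Gpr17 is higher in NPC and mDPC and at -0.85 in untreated MN, and Olig1 has no call.

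Counted together, 0 of the 6 genes differed between genotypes in mESC, also 0 at an unadjusted p under 0.05, where 4.21% of the genes tested were called in either direction. In untreated NPC 4 of the 6 were higher in BERKO, where 10.6% of all genes were higher and 5.08% lower. In untreated mDPC 5 were higher, against 8.51% higher and 5.32% lower of all genes. In untreated MN 2 were higher and 1 lower, against 13.5% and 7.31%. Under LY3201, 3 were higher in NPC (4.56% of all genes), 5 in mDPC (7.23%) and 3 in MN (9.01%). The treated and untreated comparisons use different arrays. Nkx2-2 and Cspg4 lay under the background line in every array and Sox10 in all but 1. The counts after mESC therefore include calls at levels not told from background, and Olig2 and Gpr17 were the called genes above the line.

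All 6 genes were higher in NPC than in mESC in both genotypes, where 27.7% of genes rose and 35.9% fell in BERKO, and 27.9% rose and 35% fell in WT. From NPC to mDPC in BERKO, Gpr17, Sox10 and Nkx2-2 rose and Olig2 and Cspg4 fell, against 16.5% of genes rising and 18.9% falling. In WT Gpr17 rose and Olig2 fell, against 14.6% and 15.8%. From mDPC to MN in BERKO, 5 genes fell and Cspg4 rose by 0.47 ± 0.13 (limma, adjusted p = 0.00477), against 30.8% falling and 20.1% rising. In WT Gpr17, Olig1 and Nkx2-2 fell and Sox10 rose, against 24% and 18%. The difference between genotypes of the step was tested for each gene. It was positive for Gpr17, Olig2 and Cspg4 from mESC to NPC (6.35% of all genes, with 3.25% negative) and for Sox10 from NPC to mDPC (3.68%, with 4.99% negative). From mDPC to MN it was negative for Gpr17, Sox10, Nkx2-2 and Olig2 (5.15%, with 7.31% positive). The genotype differences and these step differences share arrays and are not separate evidence. In these untreated groups Sox10, Nkx2-2 and Cspg4 lay under the background line throughout, and Gpr17 did in mESC. Their calls at these steps are fitted changes that involve levels not told from background.

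LY3201 changed 1 of the 6 genes in 1 setting. Of 36 tests of its effect, 5 had an unadjusted p under 0.05 and 1 was called, Gpr17 in WT MN. There Gpr17 read 8.13 and 8.42 with LY3201 and 10.49 and 9.08 untreated, without overlap, a change of -1.51 ± 0.30 (limma, adjusted p = 0.0151). The change was -0.81 with adjusted p = 0.0883 without the untreated WT array 1, and the call was also lost without either LY3201 array (adjusted p = 0.0552 and 0.0567). BERKO MN had 8.56 and 8.2 with LY3201 and 8.75, 9.08 and 8.97 untreated, also without overlap, but the change of -0.55 ± 0.27 did not pass (limma, adjusted p = 0.468). The BERKO change minus the WT change was 0.96 ± 0.40, which did not pass either (limma, adjusted p = 0.289). The share of all genes called in either direction was 0.344% in BERKO MN and 1.83% in WT MN. In mDPC it was 0.113% in BERKO and 0.0635% in WT, and in NPC 0% in BERKO and 0.00453% in WT. At those 2 stages 0 of the 6 genes were called in limma.

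In BERKO mDPC Olig2 had 14.99 and 15.12 with LY3201 and 15.03 and 14.79 untreated, which overlapped. In WT mDPC it had 13.48 and 13.34 with LY3201 and 12.63 and 12.65 untreated, which did not. The change was 0.14 ± 0.18 in BERKO and 0.77 ± 0.18 in WT, and neither passed over all genes (limma, adjusted p = 0.889 and 0.123). Nkx2-2 in WT mDPC changed by 0.30 ± 0.11 (limma, adjusted p = 0.275). In MN Olig2 changed by -0.44 ± 0.16 in BERKO and 0.30 ± 0.18 in WT, neither past the threshold (limma, adjusted p = 0.295 and 0.487). Of 18 tests of a difference between genotypes in the LY3201 effect, 3 had an unadjusted p under 0.05 and 0 were called in limma. Of all genes 0.499% were called in NPC, 0% in mDPC and 0.63% in MN. Hes5, a Notch target and bHLH antagonist, was the 1 listed gene called for the LY3201 effect outside MN, with 0.68 ± 0.12 in WT mDPC (limma, adjusted p = 0.0459). Its LY3201 effect in NPC was lower in BERKO than in WT by -0.81 ± 0.17 (limma, adjusted p = 0.0471). The first call was lost when only the compared arrays were fitted, where 0 of all genes were called for LY3201 in WT mDPC. The second was lost after quantile normalization, where 0 of all genes were called for that difference in NPC.

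Other genes of the lineage were read from lists chosen by name. Among 14 further OPC genes, BERKO was higher than WT for 10 and lower for 0 in untreated NPC, with a median change of 1.01 against 0.029 over all genes tested. Tenascin-R (Tnr), an extracellular matrix protein, read 10.46 in BERKO and 7.60 in WT as a mean, a difference of 2.85 ± 0.28 (limma, adjusted p = 8.42e-07). Lhfpl3 differed by 2.32 ± 0.12 and C1ql1, a secreted C1q-like protein, by 2.12 ± 0.22 (limma, adjusted p = 1.29e-10 and 1.64e-06). In mDPC 8 were higher and 1 lower, with a median of 0.53 against 0.024. Zfp488, a zinc finger protein of oligodendrocyte differentiation, differed by 2.00 ± 0.28 and Lhfpl3 by 1.46 ± 0.12, while C1ql1 was lower in BERKO by -0.81 ± 0.22 (limma, adjusted p = 4.27e-05, 5.8e-08 and 0.0179). In MN 10 were higher and 0 lower, with a median of 0.57 against 0.012, led by C1ql1 (2.01 ± 0.20) and Lhfpl3 (1.16 ± 0.11). With LY3201 the counts were 10 and 1 in NPC, 7 and 1 in mDPC and 10 and 0 in MN. In mESC they were 0 and 0. Of all genes, 10.6% were higher and 5.08% lower in untreated NPC, 8.51% and 5.32% in mDPC, and 13.5% and 7.31% in MN. With LY3201, 1005 of 22063 genes were higher and 1282 lower in NPC. The same all-gene counts were 1595 and 1788 in mDPC, and 1987 and 2335 in MN. Of the 14 genes, 4 (Nkx6-2, Matn4, Pcdh15 and Neu4) lay under the background line in every array, and Zfp488 exceeded it in 3 of 29. The mDPC count was 5 without BERKO array 1, WT array 1 or WT array 2, and the MN count was 6 when only the compared arrays were fitted.

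**Figure D3:**
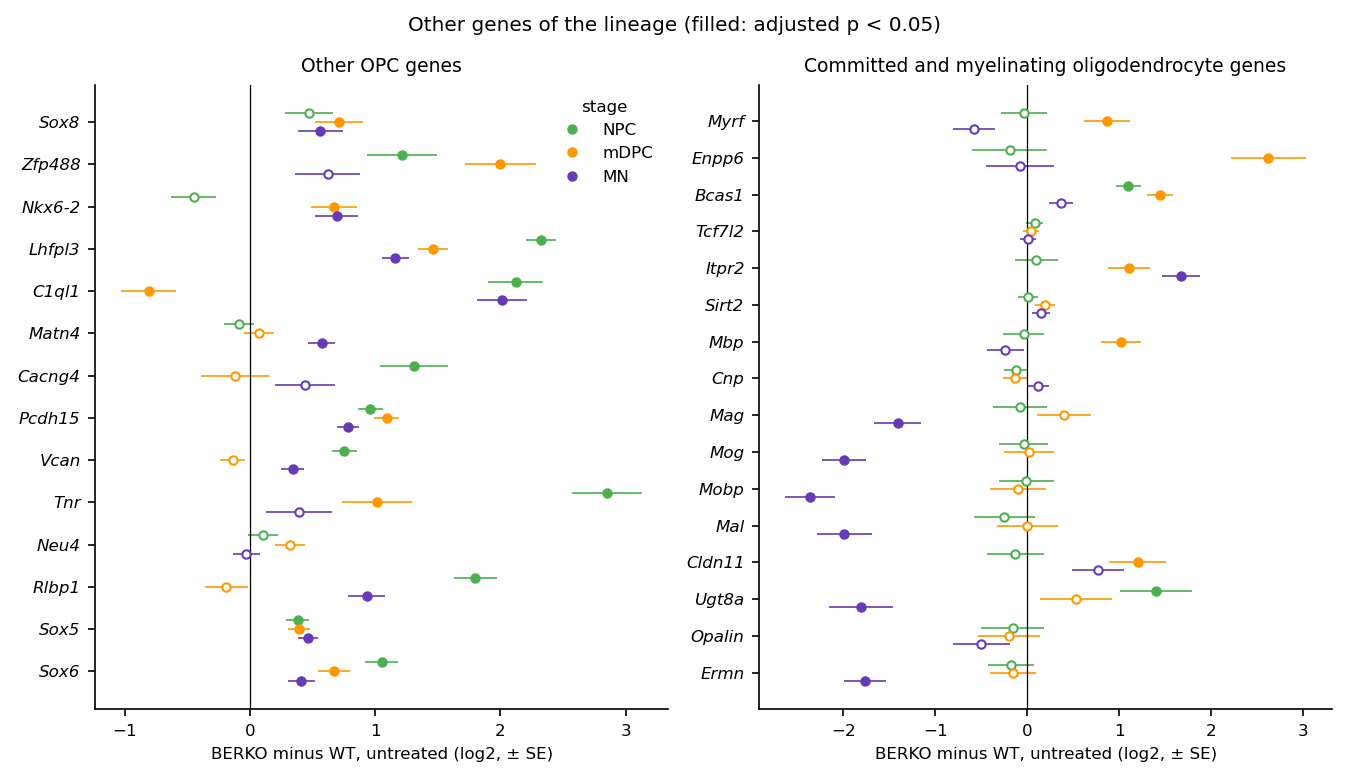
BERKO minus WT difference ± SE in untreated NPC, mDPC and MN for further OPC genes (left) and for genes of committed and myelinating oligodendrocytes (right), on the log2 scale, with filled symbols for an adjusted p under 0.05. The OPC genes called in MN lie to the right of 0, while Mobp, Mal, Mog, Ugt8a, Ermn and Mag lie to the left in MN.

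Of 16 genes of committed and myelinating oligodendrocytes tested in untreated MN, BERKO was higher for 1 and lower for 6, and 9 were not called. The median was -0.37 against 0.012 over all genes, of which 13.5% were higher and 7.31% lower. With LY3201 the MN counts were 3 higher and 3 lower, with a median of -0.13 against -0.037 over all genes. Of 22063 genes, 1987 were higher and 2335 lower in that comparison. Mobp, a protein of compact myelin, read 8.34, 9.10 and 8.44 in BERKO and 11.5 and 10.48 in WT. Mal, a lipid raft protein of myelin, read 9.59, 10.39 and 10.37 in BERKO and 12.33 and 11.88 in WT. Neither gene overlapped between genotypes. The differences were -2.36 ± 0.27 for Mobp, -1.99 ± 0.30 for Mal and -1.99 ± 0.24 for Mog, a myelin surface protein (limma, adjusted p = 2.55e-06, 5.95e-05 and 4.59e-06). The 1 higher gene was the calcium channel gene Itpr2, at 8.83, 9.5 and 9.03 in BERKO and 7.63 and 7.27 in WT (1.67 ± 0.21, limma, adjusted p = 6.72e-06). In mDPC, by contrast, 6 were higher and 0 lower in BERKO, with a median of 0.30 against 0.024. Of all genes 8.51% were higher and 5.32% lower there. Enpp6, an enzyme of newly formed oligodendrocytes, differed by 2.62 ± 0.41, the early oligodendrocyte gene Bcas1 by 1.44 ± 0.14 and the tight junction gene Cldn11 by 1.20 ± 0.31 (limma, adjusted p = 0.000118, 5.44e-07 and 0.0114). Enpp6 in WT mDPC, Cldn11 in mDPC of both genotypes and Mog in BERKO MN lay under the background line. Mog exceeded that line in 1 of 29 arrays, the untreated WT array 1 of MN (7.19), and WT array 2 lay under it (6.49). The mDPC count was 3 without BERKO array 1. In NPC Ugt8a and Bcas1 were higher, at 1.40 ± 0.39 and 1.10 ± 0.14 (limma, adjusted p = 0.0176 and 1.89e-05), and in mESC 0 were called. Of all genes 10.6% were higher and 5.08% lower in NPC. The NPC count was 1 without either BERKO array or without WT array 1.

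Most of the 16 committed and myelinating genes rose in both genotypes at the last step. From mDPC to MN 14 rose and 2 fell in BERKO, where 20.1% of all genes rose and 30.8% fell, and 13 rose and 0 fell in WT, against 18% and 24%. The median changes were 1.90 and 4.07 against -0.145 and -0.098 over all genes. Mobp rose by 5.41 ± 0.27 in BERKO and by 7.67 ± 0.30 in WT, and Mal by 5.61 ± 0.30 in BERKO and by 7.60 ± 0.33 in WT. Both genes exceeded the background line in the 9 MN arrays alone, so these are fitted changes from a level under it and not folds. The step differed between genotypes for 10 of the 16, all of them negative, that is a lower change in BERKO. Of all genes, 5.15% had a negative and 7.31% a positive difference of this step. The largest of these differences were -2.70 ± 0.55 for Enpp6, -2.34 ± 0.52 for Ugt8a, which makes a myelin lipid, and -2.26 ± 0.41 for Mobp (limma, adjusted p = 0.0022, 0.0047 and 0.00069). Their mDPC means lay under or near that line, at 7.32 in BERKO and 4.70 in WT for Enpp6 and 6.58 in BERKO and 6.05 in WT for Ugt8a, so these differences too rest in part on undetected levels.

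Ligands, receptors and pathway genes that act on OPCs moved in both directions. In NPC 3 of 18 tested were higher and 8 lower in BERKO (10.6% and 5.08% of all genes), with a median of -0.31 against 0.029. In mDPC there were 3 and 3 (8.51% and 5.32%), with a median of -0.07 against 0.024, and in MN 3 and 3 (13.5% and 7.31%), with -0.02 against 0.012. Pdgfd, a ligand of the other PDGF receptor, was higher in BERKO by 1.86 ± 0.17 in NPC, 3.5 ± 0.17 in mDPC and 2.80 ± 0.16 in MN (limma, adjusted p = 3.3e-07, 3.24e-11 and 1.36e-10). Pdgfd exceeded the background line in 8 of 29 arrays and in 0 of WT, whose means were 3.74 in NPC, 4.45 in mDPC and 4.27 in MN, so its differences are given without folds. Its receptor gene Pdgfrb, also a pericyte marker, was lower by -1.89 ± 0.13 in NPC and -1.42 ± 0.12 in MN (limma, adjusted p = 4.34e-09 and 2.71e-08), under the background line in every array. Ptch1, the Shh receptor and itself a target of the pathway, was lower in BERKO mDPC by -1.66 ± 0.09, the stage given Shh (limma, adjusted p = 2.06e-10). Olig2 and Nkx2-2, which Shh induces in the neural tube, were higher in BERKO there, by 2.27 ± 0.18 and 0.83 ± 0.11. Nkx2-2 lay under the background line, and the response to Shh was not tested. In mESC 1 was higher and 2 lower, where 4.21% of all genes were called in either direction. Of these, 0 were called when only the compared arrays were fitted. With same-number arrays averaged the number was 1.

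Of 10 bHLH partners and antagonists of Olig1 and Olig2 tested, 2 were higher and 3 lower in BERKO NPC (10.6% and 5.08% of all genes). In mDPC 3 were higher and 1 lower (8.51% and 5.32%), and in MN 5 higher and 1 lower (13.5% and 7.31%). In mESC 2 were higher, where 4.21% of all genes were called in either direction. The stages were not tested against each other as a list. Id4, an inhibitor of bHLH factors that delays oligodendrocyte differentiation, was lower by -1.63 ± 0.28 in NPC and -1.66 ± 0.28 in mDPC (limma, adjusted p = 0.000382 and 0.000301). Its relative Id2 was higher by 1.76 ± 0.20 in mDPC and 1.44 ± 0.19 in MN (limma, adjusted p = 3.99e-06 and 9.9e-06). Id1 was lower in NPC by -1.06 ± 0.25 and higher in mDPC by 1.42 ± 0.25 (limma, adjusted p = 0.00601 and 0.000476). The NPC counts were 1 higher and 7 lower after quantile normalization. They came to 3 in all without BERKO array 1 or with only the compared arrays and to 2 without WT array 2, and the mESC count was 0 under 5 alternatives.

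Markers of other cell types moved with genotype and stage beside these genes, and their part in the results was not tested. The mean level of 6 fibroblast and mesenchyme markers was 5.14 to 5.25 in BERKO and 7.26 to 7.32 in WT NPC, 4.5 to 4.53 in BERKO and 4.68 to 4.71 in WT mDPC, and 4.12 to 4.31 in BERKO and 6.42 to 6.49 in WT MN. In untreated BERKO 0 of them exceeded the background line in every array of NPC or of MN, and in untreated WT 3 did at each of these stages. The 7 astrocyte markers averaged 12.21 to 12.25 in BERKO and 11.66 to 11.84 in WT MN. Neuronal markers averaged 7.96 to 8.24 in the BERKO MN arrays, and 8.59 and 10.26 in WT array 1 and WT array 2. In mDPC they averaged 7.72 to 7.78 in BERKO and 8.52 to 8.54 in WT, and neural progenitor markers 10.38 to 10.4 in BERKO and 10.63 to 10.79 in WT. Markers of motor neurons, which also come from cells with Olig2, and of the ventral neurons that share Nkx2-2 stayed under the background line in all arrays, as did those of microglia. Of the Schwann cell and neural crest markers, which share Sox10, 0 exceeded it in all arrays of any untreated NPC, mDPC or MN group, and 1 did in mDPC of BERKO with LY3201, where Sox10 was highest. Their mean level in untreated mDPC was 4.54 to 4.59 in BERKO and 4.1 to 4.15 in WT. In untreated mDPC 1 of 5 tested was called, where 8.51% of all genes were higher and 5.32% lower. It was Pax3, a transcription factor of the neural crest and dorsal neural tube, with means of 7.15 in BERKO and 4.79 in WT (2.35 ± 0.11, limma, adjusted p = 2.9e-11).

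**Figure D4:**
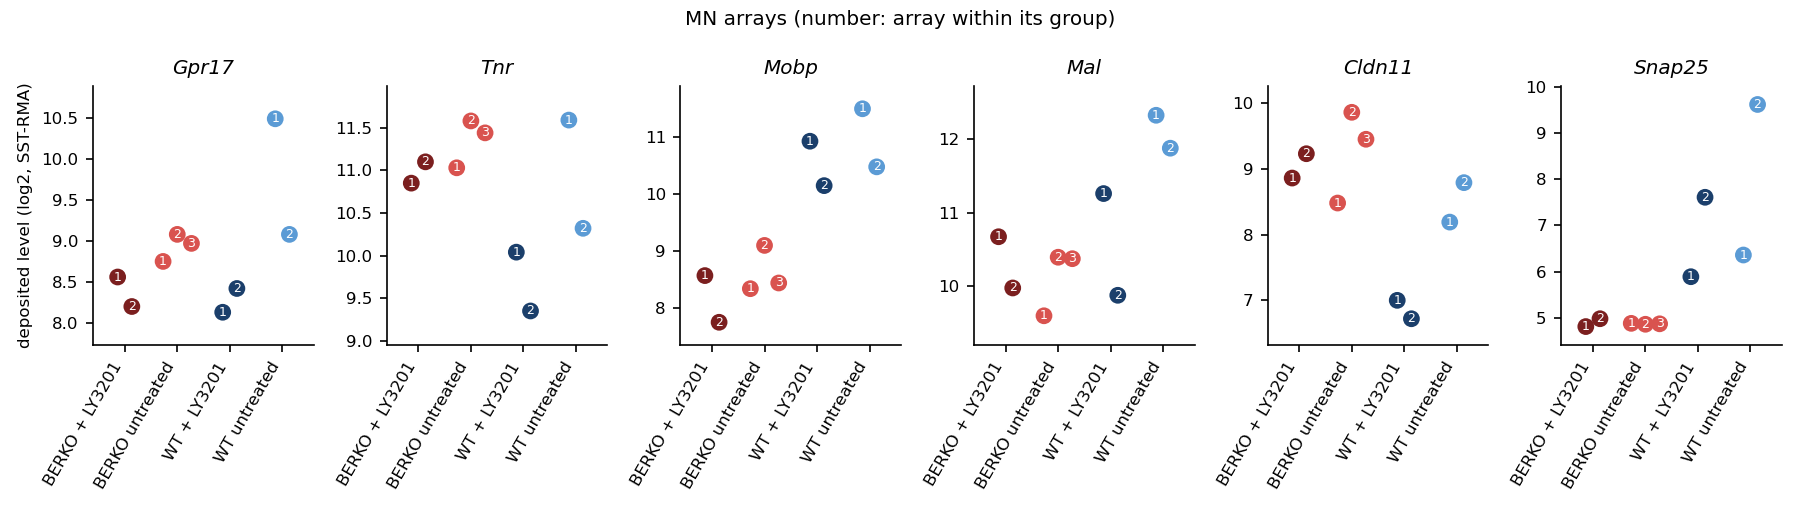
Deposited log2 level in each MN array for Gpr17, 4 oligodendrocyte genes and the neuronal gene Snap25, with the number of the array within its group. The BERKO arrays stay between 4.81 and 4.98 for Snap25, untreated WT array 1 has the highest Gpr17 (10.49) and Mobp (11.5), and WT array 2 the highest Snap25 (9.62).

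The untreated WT arrays of MN stood apart from each other for several genes. WT array 1, with Gpr17 at 10.49, had Tnr at 11.59, Mobp at 11.5 and the neuronal gene Snap25 at 6.36. WT array 2, with Gpr17 at 9.08, had Tnr at 10.32, Mobp at 10.48 and Snap25 at 9.62. Not every oligodendrocyte gene had that order, since Cldn11 read 8.19 in WT array 1 and 8.79 in WT array 2, and Ermn 7.33 and 7.54. Under LY3201 in WT MN, Tnr changed by -1.26 ± 0.28, Mal by -1.54 ± 0.33 and Cldn11 by -1.63 ± 0.31 (limma, adjusted p = 0.0287, 0.023 and 0.0129). Cldn11 read 7.0 and 6.72 with LY3201, below both untreated arrays, while the Mal values with LY3201 stood apart at 11.26 and 9.87. Tnr, Mal and Cldn11 were the only genes called there among the further OPC genes and the committed and myelinating ones. When only the compared arrays were fitted, 0 of all genes were called for LY3201 in WT MN, so these calls were lost.

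The genes' order over the 14 groups differed. Olig2 was highest in NPC of BERKO (16.22 as a group mean), then NPC of BERKO with LY3201 (15.82) and the BERKO mDPC groups (15.05 with LY3201 and 14.91 untreated, which overlapped), and lowest in mESC of WT (9.55). The BERKO MN arrays (14.10) overlapped those of WT NPC (14.09). Gpr17 was highest in mDPC of BERKO with LY3201 (14.75) and untreated (14.36), Sox10 and Nkx2-2 likewise in these groups (7.05 and 6.79 for Sox10, 6.05 and 5.90 for Nkx2-2), and Cspg4 in NPC of BERKO with LY3201 and untreated (4.71 and 4.69). As a description over 14 group means, which share the platform and, within a stage, the culture protocol, Nkx2-2 and Gpr17 had Pearson r 0.95, also over the 12 without mESC. Olig1 and Olig2 had r 0.87 over 14 groups and 0.52 over the 12 without mESC, and Olig2 and Cspg4 0.79 and 0.82. Among 13358 genes whose group means ranged over at least 1, the 3 most like Olig2 were Fchsd2 (r 0.987), Lrrfip1 (0.971) and Mmp16 (0.97). For Olig1 they were Senp7 (0.995), Ttc3 (0.995) and Egfr (0.994), and for Gpr17 Sestd1 (0.995), Lsamp (0.987) and Snx27 (0.983). For Sox10 they were Abcg4 (0.981), Eya1 (0.96) and Cyp2j6 (0.96), for Nkx2-2 Tbck (0.977), Slc30a10 (0.971) and Dlst (0.97), and for Cspg4 Gsap (0.956), Shc4 (0.922) and Cdh19 (0.919).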

How the data were processed

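Total RNA (150 ng per sample, per the labels) was measured on 29 arrays. The deposited log2 values come from the authors' SST-RMA processing in Affymetrix Expression Console 1.4, per the labels, and the submitters' processing notes also name RMA and the Transcriptome Analysis Console without versions. The genome build of the array's annotation is not given in the sources used here, so coordinates are given for RefSeq promoters alone.

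The table held 72688 rows, of which 6732 were controls (5222 negative controls) and 65956 transcript clusters. Clusters with 1 gene symbol (30604) covered 30142 genes, each read from its cluster with the highest mean, and clusters with several symbols (2146) were left out. limma 3.58.1 in R 4.3.3 fitted 1 mean per group to all 29 arrays, with 15 residual and 3.303 prior degrees of freedom. The 25 comparisons are contrasts of these means, 2-sided, each adjusted by Benjamini-Hochberg across 22063 genes and called at an adjusted p under 0.05, and all adjusted p-values of genes are from limma. The design calls the arrays of a group biological replicates, but nothing says that they came from separate cultures, so p-values may measure technical spread, and the number of arrays limits the precision.

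The text names all members and, from each list, the 3 largest called changes or fewer in a comparison it describes. Values of Itpr2, C1ql1 and Anpep where they went against their list, and of Pax3, were chosen after they were seen. The genes most like a member are the 3 with the highest Pearson r over the 14 group means. The members and the lists were chosen with earlier results of these data known. Alternatives were quantile normalization, a trended robust prior, no filter or one at the 75th percentile, only the compared arrays, all clusters in place of genes, averages of arrays that share a title number, and leaving out each array. matplotlib 3.10.9 drew the figures.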

Additional observations from a re-analysis of the deposited data

Results flagged for a closer look

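The 8 results below stood out because the change from one stage to the next differed between BERKO and WT by a test of the difference itself in limma, with adjustment over all genes tested. From mESC to NPC the BERKO change exceeded the WT change by 2.13 for Gpr17, by 1.96 for Olig2 and by 1.04 for Cspg4 on the log2 scale. From NPC to mDPC it did so by 1.16 for Sox10, whose change was 1.09 in BERKO and -0.07 in WT. From mDPC to MN the BERKO change lay below the WT change, with differences of -2.08 for Gpr17, -1.10 for Sox10, -0.97 for Nkx2-2 and -0.77 for Olig2. Gpr17 in mESC, Nkx2-2 and Cspg4 in every array and Sox10 in all but 1 lay under the background line, so these differences are fitted values that involve levels not told from background. The call for Olig2 was lost under 22 of its 36 alternatives, and that for Gpr17 at the same step under 1, the fit to only the compared arrays (adjusted p = 0.0522). The other 6 calls held under every alternative run for them. No group held 4 or more arrays, so single arrays were not tested as outliers.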

How the results depend on the processing

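Of the called results of the 6 genes, 2137 values under the alternatives stayed on their side of the threshold and in their direction, and 48 no longer passed. Differences of the 6 genes that were called in no fit are not covered here. Among those called in at least 1 fit, to all arrays or under an alternative, direction turned for Olig1 alone. Its genotype difference in mESC was 1.03 without WT array 1 and -1.37 without WT array 2 (-0.17 with both), and its step difference from mESC to NPC was -0.088 after quantile normalization, -1.0 without WT array 1 and 1.39 without WT array 2 (0.19 with both). Fitting only the compared arrays, which are fewer, called 2 of the 6 genes for the difference of the step from NPC to mDPC (1 in the fit to all arrays), 2 from mDPC to MN (4 in the fit to all arrays) and 0 for LY3201 in WT MN (1 in the fit to all arrays). The stricter filter also called 2 for the step from NPC to mDPC, with fewer genes tested, and Cspg4 did not pass that filter. With each array left out in turn, the number called ran from 1 to 3 for genotype in MN with LY3201, from 0 to 1 in mESC, from 0 to 1 for LY3201 in WT MN, from 0 to 1 for the genotype difference of the LY3201 effect in MN, and from 1 to 2 for the step from NPC to mDPC. That LY3201 difference in MN was called for Olig2 (-1.05) without WT array 1 and for Gpr17 (1.66) without WT array 2. Counts over all genes moved more: 929 genes in mESC ran from 174 to 1080 over the alternatives, 4584 in MN from 2349 to 4833, and 403 for LY3201 in WT MN from 0 to 653. The causes were not tested. No paired analysis was possible because the labels give no replicate numbers that groups share. Sox10, Nkx2-2 and Cspg4 lay near or below the negative controls, which limits what their levels can show.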
